A study of Mus musculus with 3 samples.

Results

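Cells high in Snhg15, Snhg17, Chaserr and Relb were picked out of single-cell RNA sequencing of mouse embryonic fibroblasts under direct conversion to induced motor neurons. A kept cell was a member when these 4 genes together gave at least 0.1% of its UMIs (unique molecular identifiers, each counting 1 captured transcript) and at least 3 UMIs. Members were 520 of 10522 kept cells over 3 libraries. They were 149 of 2314 cells with supplements at 14 dpi (6.44%, 95% exact binomial interval 5.47 to 7.52), 100 of 3716 without supplements at 14 dpi (2.69%, 2.19 to 3.26) and 271 of 4492 at 4 dpi (6.03%, 5.35 to 6.77).

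All 3 libraries came from Hb9::GFP cells, which carry a green fluorescent reporter driven from the motor neuron gene Mnx1 (Hb9). All had received LNI, a cassette of Lhx3, Ngn2x3HA and Isl1, and DDRR, which joins HRAS(G12V), an active form of the GTPase, to p53DD, a dominant-negative fragment of p53. At 14 dpi, with dpi the time unit of the labels, cells sorted as Hb9::GFP-positive came from a culture with BDNF, CNTF, GDNF, FGF and RepSox and from a culture with none of these supplements. At 4 dpi, cells with supplements were sorted for low CellTrace-FarRed, a dye that division dilutes. Each group holds 1 library, so nothing here has a replicate check and no p-value is given. An exact two-sided sign test over the 3 libraries cannot go below p = 0.25. The 3 share a batch date, but the 4 dpi cells were released with trypsin and the 14 dpi cells with papain and DNase. Time, sort, dissociation and depth therefore cannot be told apart between 4 and 14 dpi. The counts do not separate transcripts of the introduced genes from the cell's own Lhx3, Neurog2, Isl1, Hras and Trp53.

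Snhg15 and Snhg17 are hosts of small nucleolar RNAs: the small RNAs lie in their introns, and the spliced remainder is a noncoding RNA that is usually short-lived and in many hosts is degraded through nonsense-mediated decay. Chaserr is a long noncoding RNA transcribed just upstream of Chd2, a chromatin remodeller, and in mouse it lowers Chd2 from the same chromosome. Relb is a subunit of NF-kB, the family of transcription factors of inflammation, and acts mainly in its noncanonical arm. The integrated stress response is the arm in which phosphorylation of the initiation factor eIF2 slows translation while Atf4 and then Ddit3 (CHOP) switch on genes of amino acid supply. Immediate early genes are transcription factors and their partners that cells induce within minutes of a stimulus, without new protein synthesis.

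The promoters of Snhg15 and Chaserr are shown because these genes carried most of the rule, and those of Cxcl2 and Atf3 because these were the markers outside it. Each window runs from 250 bases before to 50 bases after the RefSeq start, 5′ to 3′ on the gene's strand, build GRCm38.p6, and the search took both strands. The motifs were AP-1 (TGANTCA), the cAMP response element or CRE (TGACGTCA), the ATF4-CHOP composite element (TGATGNAA) and the NF-kB consensus, and capitals mark a match. The windows are Snhg15 at chr11:6528711-6529010 on the minus strand, Chaserr at chr7:73558346-73558645 on the minus strand, Cxcl2 at chr5:90903649-90903948 on the plus strand and Atf3 at chr1:191183284-191183583 on the minus strand.
Snhg15: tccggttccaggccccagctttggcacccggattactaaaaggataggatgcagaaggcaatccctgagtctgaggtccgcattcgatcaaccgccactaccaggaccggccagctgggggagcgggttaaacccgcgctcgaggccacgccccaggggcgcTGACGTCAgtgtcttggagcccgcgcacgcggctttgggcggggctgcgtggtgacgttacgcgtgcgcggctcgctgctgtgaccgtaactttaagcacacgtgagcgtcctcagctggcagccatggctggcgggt
Chaserr: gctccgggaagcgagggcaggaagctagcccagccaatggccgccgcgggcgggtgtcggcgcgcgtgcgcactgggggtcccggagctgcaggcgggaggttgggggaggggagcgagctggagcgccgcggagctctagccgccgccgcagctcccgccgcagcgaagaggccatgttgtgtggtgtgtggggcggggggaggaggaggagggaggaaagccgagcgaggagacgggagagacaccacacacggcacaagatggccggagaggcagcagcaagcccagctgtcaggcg
Cxcl2: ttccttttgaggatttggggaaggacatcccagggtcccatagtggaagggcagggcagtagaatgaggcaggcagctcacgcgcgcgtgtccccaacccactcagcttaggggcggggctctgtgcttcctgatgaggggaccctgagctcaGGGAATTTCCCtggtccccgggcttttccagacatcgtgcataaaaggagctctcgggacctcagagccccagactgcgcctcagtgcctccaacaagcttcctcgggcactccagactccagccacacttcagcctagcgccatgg
Atf3: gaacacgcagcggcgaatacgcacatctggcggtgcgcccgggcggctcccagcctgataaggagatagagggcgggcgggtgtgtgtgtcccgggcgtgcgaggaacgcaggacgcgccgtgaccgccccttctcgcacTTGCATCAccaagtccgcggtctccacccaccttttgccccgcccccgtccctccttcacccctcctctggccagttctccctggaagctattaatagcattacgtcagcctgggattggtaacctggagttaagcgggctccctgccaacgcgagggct

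The Snhg15 window holds a CRE at bases -88 to -81 from the start, and 1.79% of 32851 RefSeq promoter windows hold this motif. The Cxcl2 window holds overlapping NF-kB matches at -97 to -87, against 8.46% of all windows. The Atf3 window holds the ATF4-CHOP composite at -110 to -103 on the other strand, against 3.97% of windows. In the Chaserr window the letters of the 4 motifs do not occur. Of the 20 genes searched for (the 4 genes of the rule, Cxcl2, Atf3 and the genes highest in members in every library), 16 had a window. These 16 genes had 21 windows, 5 for Egr2 and 2 for Snhg17, and a gene was counted when any of its windows matched, while the shares of all windows are per window. Among the 16, NF-kB matches stood in 3 (Cxcl2, Cxcl1 and, in 1 of its 5 windows, Egr2), CREs in 2 (Snhg15 and Ccdc173), the composite in 1 (Atf3) and AP-1, at 7.81% of all windows, in 1 (Gm16973). A match describes the letters of the window and is no measure of binding.

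The depth of members was below that of the other cells with supplements and above it in the other two libraries. Median UMIs per cell were 12583 in members against 14519 in other cells with supplements, 11365.5 against 10650.5 without supplements and 2955 against 2260 at 4 dpi. Median genes per cell were 4094 against 4002, 3663 against 3382.5 and 1634 against 1178, in members and other cells of the same 3 libraries. Member UMIs summed to 2112017 with supplements, 1278947 without supplements and 872913 at 4 dpi. Kept libraries shared 3 to 5 cell barcodes in pairs, and no shared barcode was a member in both libraries.

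The share of UMIs that chose the cells formed a tail rather than a separate peak. Its median was 0.221% of UMIs in members against 0.0112% in other cells with supplements, 0.181% against 0.0115% without supplements and 0.261% against 0 at 4 dpi. The highest members reached 1.07%, 1.09% and 0.943%. Members held 51.4%, 29.0% and 58.9% of all UMIs of the 4 genes in these libraries. A further 9, 4 and 81 cells passed 0.1% with fewer than 3 UMIs and were left out, most of them at 4 dpi, where cells were shallow. Just inside the threshold (0.1 to 0.12%) were 22 cells with supplements, 21 cells without supplements and 20 cells at 4 dpi, and just outside it (0.08 to 0.1%), with the same minimum of 3 UMIs, 28, 23 and 24. Without that minimum the range just outside held 34, 25 and 119 cells, so at 4 dpi most cells there had fewer than 3 UMIs of the 4 genes. Atf3 stood at 135, 70.0 and 56.6 CPM (counts per 1000000 UMIs of the summed cells) just inside and at 98.5, 77.6 and 68.2 CPM just outside, in cells with 3 or more of these UMIs. It was thus higher just inside the line with supplements and lower there in the other libraries, but each level came from 20 to 28 cells. No counting interval was computed for these levels, so no direction is read from them.

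**Figure D1:**
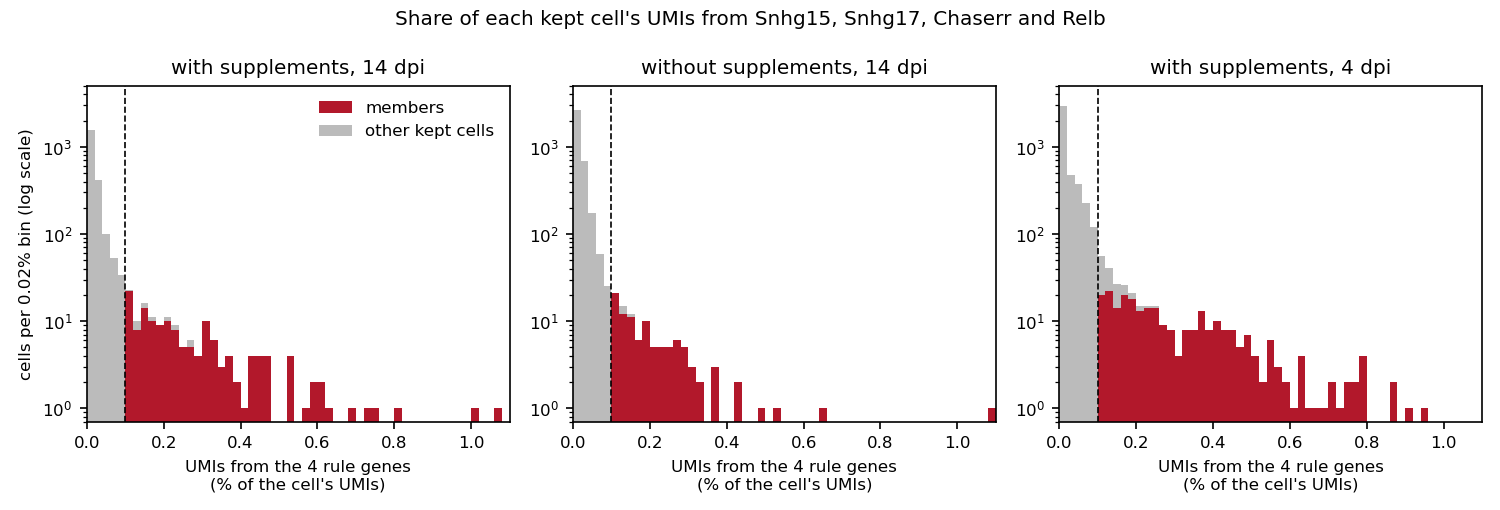
Cells per bin of 0.02% (log scale) against the percent of a cell's UMIs from Snhg15, Snhg17, Chaserr and Relb, with members in red and other kept cells in grey, 1 panel per library. The counts thin out across the threshold of 0.1% without a gap, and members reach 1.07% with supplements, 1.09% without supplements and 0.943% at 4 dpi.

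The share of members rose with depth at 4 dpi, but the rule itself was stricter for shallow cells. In a cell below 3000 UMIs, the minimum of 3 UMIs is a larger share than the rule's threshold. The shallowest bins at 4 dpi ended at 1649 and 2312 UMIs, so every cell in them faced this stricter line. A rise along the bins at 4 dpi is therefore built into the rule, and no effect of depth beyond it was tested. In 4 equal bins of UMIs per cell, from shallow to deep, members were 2.32, 4.19, 8.64 and 8.99% of cells at 4 dpi. The same bins gave 7.25, 8.13, 5.19 and 5.18% with supplements and 3.12, 1.62, 2.58 and 3.44% without supplements. With every cell thinned to 3000 UMIs and shallower cells left out, members were 8.55% with supplements, 4.27% without supplements and 10.8% at 4 dpi. This left out 114, 87 and 3059 cells, so the share at 4 dpi describes only the 1433 deeper cells of that library. Thinned to 1500 UMIs, where 3 UMIs are 0.2%, members were 4.80, 1.58 and 5.21%, with 62, 41 and 844 cells left out. At both depths the library without supplements had the lowest share. The supplements and all else that set this library apart cannot be told apart.

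Among the 4 genes of the rule, Snhg15 and Chaserr carried most of the signal, and these values describe the choice of cells. Snhg15 had 1470.2 CPM in members against 54.4 CPM in other cells with supplements, 913 against 42.6 without supplements and 1832 against 70.2 at 4 dpi, log2 ratios of 4.76, 4.42 and 4.71. Wherever 3 log2 ratios of members over other cells stand together, they belong to the library with supplements, the one without them and the 4 dpi one, in that order. Chaserr had 899.6 CPM in members against 80.04 CPM in other cells with supplements, 964 against 75.8 without supplements and 801 against 57.99 at 4 dpi. Snhg17 had 245 CPM in members against 16.9 CPM in other cells with supplements, 116 against 17.7 without supplements and 233 against 16.2 at 4 dpi, and Relb had 161 CPM in members against 8.80 CPM in other cells with supplements, 92.3 against 10.1 without supplements and 241 against 22.9 at 4 dpi. Snhg15 gave 52.96% of the rule's UMIs in members with supplements, 43.8% without them and 58.98% at 4 dpi, and Chaserr 32.4, 46.2 and 25.8%. All 4 genes were detected in 82 of 149 members with supplements, 33 of 100 without supplements and 54 of 271 at 4 dpi. A single gene made a member of 2, 8 and 23 cells, each time Snhg15 or Chaserr.

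Each of the 4 genes was high in cells chosen by the other 3 alone. Every cell so chosen was already a member, and the 4 genes were put together with earlier results of these data known. The values therefore describe the rule and are no separate support for it. In cells chosen without Snhg15, that gene stood at 1807 CPM in chosen cells against 78.5 CPM in other cells with supplements, 935 against 52.4 without supplements and 2078 against 123 at 4 dpi, log2 ratios of 4.52, 4.16 and 4.08. Left out in turn, Chaserr had log2 ratios of 3.30, 3.36 and 3.53, Relb of 4.16, 3.16 and 3.17 and Snhg17 of 3.81, 2.57 and 3.59 in the same order of libraries. Relb, the only protein-coding gene of the 4, stood at 161 CPM in chosen cells against 9.02 CPM in other cells with supplements, 91.7 against 10.2 without supplements and 225 against 25.03 at 4 dpi when the 3 noncoding RNAs chose the cells. The smallest of these 12 ratios was 2.57, for Snhg17 without supplements.

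More genes were higher in members than lower. Of 7431 genes at 20 CPM or more in members or other cells with supplements, 1119 (15.1%) were at least 2-fold higher in members and 482 (6.49%) at least 2-fold lower. Without supplements, 805 of 7267 (11.1%) were higher and 569 (7.83%) lower, and at 4 dpi 1599 of 7346 (21.8%) were higher and 319 (4.34%) lower. The median gene was itself shifted, by a log2 ratio of 0.22 with supplements, 0.16 without supplements and 0.38 at 4 dpi. Measured from that median, 701 genes were higher and 738 lower with supplements, 569 and 750 without supplements and 779 and 746 at 4 dpi, so the excess of higher genes is not seen on that scale. Of 6149 genes at 20 CPM in all 3 libraries, 354 were at least 2-fold higher in members in every library. Among these 6149, the higher genes were 831 with supplements, 683 without supplements and 1208 at 4 dpi. The 354 were 42.6, 51.8 and 29.3% of these. Another 71 were lower in every library, and 14 were 2-fold in opposite directions. A gene that reached 20 CPM in members or in other cells alone, having been below it in the rest, tends to differ by construction. The members were chosen on transcripts of the same cells, so all ratios below are descriptions with counting intervals.

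Gadd45b, a stress-induced regulator of p38 and JNK signalling, was among the genes furthest above the other cells in every library. It had 115 CPM in members against 4.61 CPM in other cells with supplements, 128 against 16.4 without supplements and 179.9 against 6.62 at 4 dpi. The log2 ratios, with 95% counting intervals, were 4.63 (4.34 to 4.93) with supplements, 2.96 (2.71 to 3.21) without supplements and 4.76 (4.36 to 5.18) at 4 dpi. Rrad, a small GTPase of the RGK family, had 74.8 CPM in members against 5.39 CPM in other cells with supplements, 102 against 6.64 without supplements and 108 against 10.4 at 4 dpi, log2 ratios of 3.79, 3.94 and 3.37. Klf10, an early zinc-finger factor of TGF-beta signalling, had 143 CPM in members against 11.2 CPM in other cells with supplements, 207 against 30.2 without supplements and 116 against 15.1 at 4 dpi. Egr2, an immediate early zinc-finger factor, had 45.9 CPM in members against 3.20 CPM in other cells with supplements, 38.3 against 3.95 without supplements and 38.95 against 3.18 at 4 dpi. All 4 were several-fold higher in members in each library.

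Further genes of the same highest set followed. Snhg16, another small nucleolar RNA host, had 193 CPM in members against 18.4 CPM in other cells with supplements, 119.6 against 20.7 without supplements and 164 against 9.53 at 4 dpi, log2 ratios of 3.39, 2.53 and 4.10. Trit1, which adds an isopentenyl group to tRNAs, had 91.9 CPM in members against 7.01 CPM in other cells with supplements, 77.4 against 11.2 without supplements and 110.0 against 9.80 at 4 dpi. Qtrt1, the catalytic subunit of the enzyme that puts queuine into tRNAs, had log2 ratios of 2.69, 2.44 and 3.12. Pvt1, a long noncoding RNA beside Myc, had 105 CPM in members against 11.9 CPM in other cells with supplements, 110.2 against 19.1 without supplements and 142 against 22.9 at 4 dpi. Arrdc4, an alpha-arrestin, had log2 ratios of 2.47, 2.99 and 3.20, and the histone gene H4c9 of 3.37, 3.53 and 2.53. Histone H4 genes are near-identical copies, so the counting could split reads between them and H4c9 itself is uncertain. Gm16973 (3.44, 3.1 and 4.16), Ccdc173 (2.78, 3.25 and 3.17) and 2610307P16Rik (2.69, 2.77 and 2.93) complete the set.

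**Figure D2:**
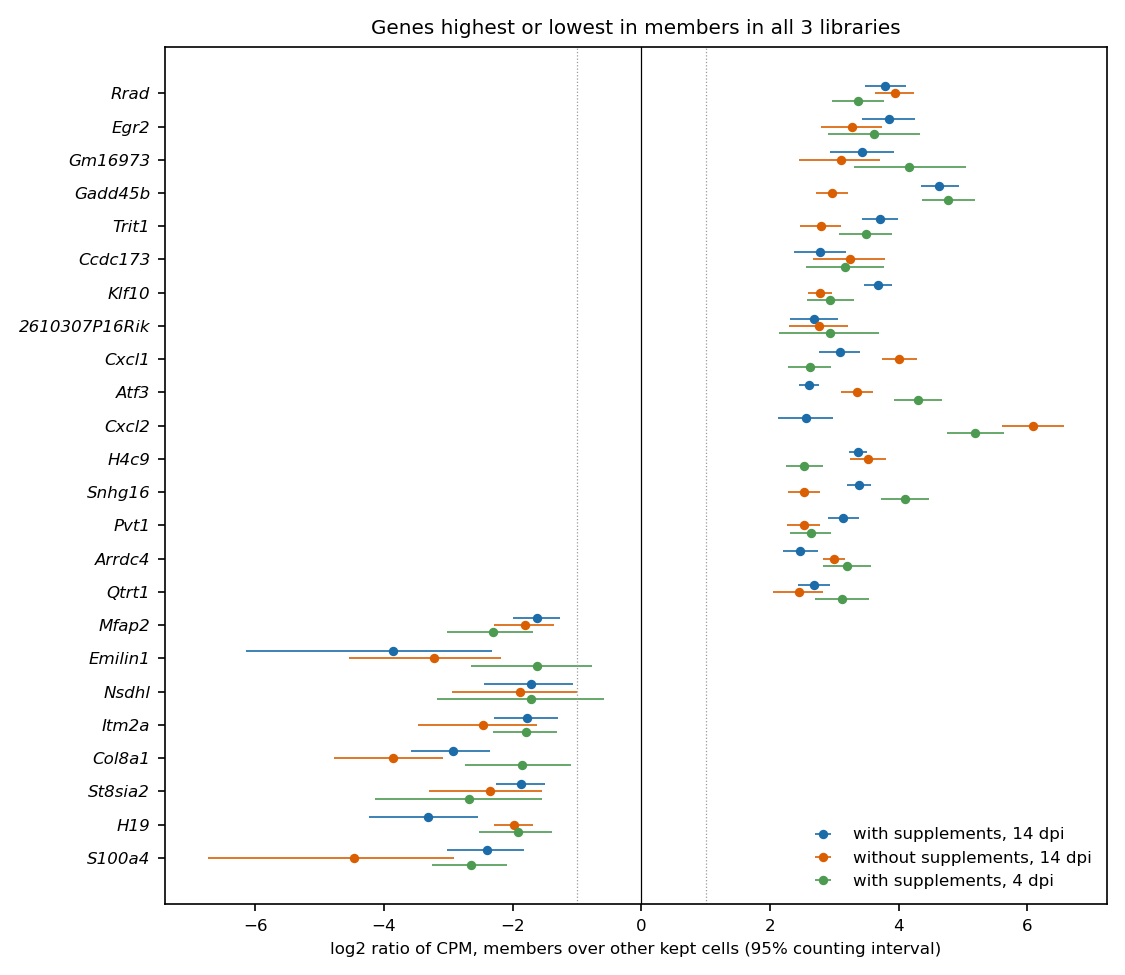
Log2 ratio of CPM, members over other kept cells, with its 95% counting interval for the 16 genes highest and the 8 genes lowest in members in all 3 libraries, coloured by library. Gadd45b lies at 4.63, 2.96 and 4.76, and all 8 lower genes lie left of -1 in each library.

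Atf3, a stress-induced factor of the ATF family and 1 of the genes the cells were named for, was high in members of every library. It had 222 CPM in members against 36.6 CPM in other cells with supplements, 138 against 13.5 without supplements and 179 against 9.09 at 4 dpi, with log2 ratios of 2.60 (2.45 to 2.75) with supplements, 3.35 (3.1 to 3.60) without supplements and 4.30 (3.93 to 4.67) at 4 dpi. Its own UMIs were found in 58.4% of members against 21.8% of other cells with supplements, 52.0% of members against 9.32% of other cells without supplements and 29.5% of members against 2.01% of other cells at 4 dpi. Thinned to 1500 UMIs per cell, the shares were 16.4% of members against 4.04% of other cells, 18.4% of members against 1.71% of other cells and 21.3% of members against 1.24% of other cells in the same libraries. Atf3 was thus found in more of the members than of the other cells at equal depth. A cell with no UMI of it may still express it, so these shares do not give the share of cells that express Atf3.

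Cxcl2, the other such marker, is a chemokine that attracts neutrophils, and it had UMIs in fewer members than Atf3. They were found in 22 of 149 members against 67 of 2165 other cells with supplements, 7 of 100 against 35 of 3616 without supplements and 39 of 271 against 29 of 4221 at 4 dpi, which again counts cells with a UMI and not cells that express the gene. It had 29.8 CPM in members against 5.05 CPM in other cells with supplements, 86.8 against 1.28 without supplements and 189 against 5.21 at 4 dpi. Without supplements 1 cell held 80.2% of its UMIs in members, and without that cell the level was 17.4 CPM and the log2 ratio 3.76 instead of 6.08. At 4 dpi 1 cell held 30.9%. Its level just outside the threshold with supplements, 167 CPM in 28 cells, was above that just inside, 23.2 CPM in 22 cells. Both were cells with 3 or more UMIs of the rule's genes.

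Genes of the integrated stress response were higher as a group in members of all 3 libraries. Of the list's 30 genes, those at least 2-fold higher were 18 of 28 with supplements, 21 of 26 without supplements and 22 of 28 at 4 dpi, and none was 2-fold lower. Of all genes compared, 15.1% with supplements, 11.1% without supplements and 21.8% at 4 dpi were at least 2-fold higher. At least 2-fold lower were 6.49% with supplements, 7.83% without supplements and 4.34% at 4 dpi. In the lists that follow, counts of higher genes stand against the first shares and counts of lower genes against the second. Lists and shares alike include genes that reached 20 CPM on 1 side alone, which tend to differ by construction. The median log2 ratio was 1.28, 1.37 and 1.35, which is 1.06, 1.21 and 0.97 above the median of all genes. The list contains Atf3. Its summed level was 5759 CPM in members against 2537 CPM in other cells with supplements, 5766 against 2120.1 without supplements and 4879 against 1924 at 4 dpi.

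The factors Ddit3 and Atf4 were at least 2-fold higher in members of each library. Ddit3, the factor CHOP, had 714 CPM in members against 109 CPM in other cells with supplements, 695 against 109 without supplements and 336 against 75.5 at 4 dpi. Atf4, its upstream activator, had log2 ratios of 1.01, 1.26 and 1.31, and Trib3, a pseudokinase induced by both, of 2.35, 2.88 and 2.46. Chac1, which breaks down glutathione, had 83.3 CPM in members against 16.4 CPM in other cells with supplements, 144 against 8.79 without supplements and 83.6 against 7.68 at 4 dpi. Asns, which makes asparagine, had 354 CPM in members against 201 CPM in other cells with supplements, 550.5 against 130.4 without supplements and 333 against 115 at 4 dpi. The cystine importer Slc7a11 had 38.8 CPM in members against 7.04 CPM in other cells with supplements, 30.5 against 3.70 without supplements and 24.1 against 9.71 at 4 dpi, and Slc3a2, its partner in the membrane, log2 ratios of 1.25, 1.66 and 2.26. Ppp1r15a, the phosphatase subunit that reverses eIF2 phosphorylation, had log2 ratios of 1.36, 1.80 and 1.86. Psat1, of serine synthesis, was not 2-fold apart in any library (0.04, 0.71 and -0.13), and Vldlr, a lipoprotein receptor, lay below them (-0.67, -0.73 and -0.24).

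The endoplasmic reticulum chaperones, which belong to the other arms of the unfolded protein response, went the other way. At least 2-fold lower were 4 of 13 with supplements, 3 of 13 without supplements and 6 of 15 at 4 dpi, and only Xbp1 at 4 dpi was 2-fold higher (log2 ratio 1.03). The median log2 ratio was -0.85, -0.76 and -0.88. Calr, the calcium-binding chaperone calreticulin, had 299 CPM in members against 644 CPM in other cells with supplements, 214 against 441 without supplements and 524 against 1436 at 4 dpi. Pdia6, a disulfide isomerase, had log2 ratios of -0.97, -1.21 and -1.57, Manf, a secreted luminal factor, of -1.31, -0.84 and -1.09, and Sdf2l1 of -1.80, -0.84 and -0.88. Hspa5 (BiP), the master chaperone, stood close to other cells at 14 dpi and lower at 4 dpi (0.01, -0.09 and -0.88). Cytosolic heat shock genes had medians of 0.13, 0.24 and -0.26, and those 2-fold higher were 1 of 11 with supplements, 0 of 10 without supplements and 1 of 11 at 4 dpi, each time Hspb1. With supplements 1 cell held 63.8% of Hspb1's member UMIs, and without it the log2 ratio was 0.70, and at 4 dpi the log2 ratio without the top cell was 0.36. Of the stress programmes listed, the integrated stress response was thus higher in members, and the chaperone lists of the endoplasmic reticulum and cytosol had medians below or near zero.

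NF-kB subunits and inhibitors, a list that leaves out Relb, were higher in members. At least 2-fold higher were 10 of 13 with supplements, 7 of 11 without supplements and 14 of 17 at 4 dpi, and none was 2-fold lower. Some of these, such as Nfkb2, Nfkb1 and Tnfaip3 with supplements, reached 20 CPM in members alone and so tend to be higher by construction. How many entered that way was not counted. Nfkb2, the partner of Relb, had 57.8 CPM in members against 5.25 CPM in other cells with supplements, 21.1 against 9.13 without supplements and 110.0 against 22.7 at 4 dpi, log2 ratios of 3.46, 1.21 and 2.28. Rela, the main canonical subunit, had log2 ratios of 1.26, 1.09 and 1.86. The inhibitor Nfkbia, itself an NF-kB target, had 189.9 CPM in members against 35.4 CPM in other cells with supplements, 243 against 48.2 without supplements and 372 against 83.8 at 4 dpi. Traf2, an adaptor of TNF receptors, had log2 ratios of 2.49, 1.91 and 2.84, and Birc3, a ubiquitin ligase, of 2.62, 2.19 and 2.26. Tnfaip3 (A20), a feedback inhibitor, had 31.7 CPM in members against 0.750 CPM in other cells with supplements, 8.60 against 2.18 without supplements and 67.6 against 2.74 at 4 dpi. Without supplements it lay below the 20 CPM floor on both sides, with 11 member UMIs, and is not in the count there. Nfkb1 had 48.3 CPM in members against 12.4 CPM in other cells with supplements, 28.9 against 27.1 without supplements and 82.5 against 28.9 at 4 dpi, and the difference between libraries was not tested. The median log2 ratio of the list was 1.96, 1.09 and 2.14.

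Among NF-kB target cytokines and receptors, those at least 2-fold higher were 7 of 10 with supplements, 5 of 9 without supplements and 7 of 12 at 4 dpi, of 22 listed. Here too some genes, such as Cxcl1 and Icam1 with supplements, reached 20 CPM in members alone and so tend to be higher by construction. Cxcl1, a neutrophil chemokine like Cxcl2, had 60.1 CPM in members against 7.10 CPM in other cells with supplements, 128 against 7.96 without supplements and 131 against 21.3 at 4 dpi. Without supplements 1 cell held 36.0% of Cxcl1's member UMIs, and the log2 ratio without it was 3.38 instead of 4.01. At 4 dpi 1 cell held 26.3% of them, and the log2 ratio without it was 2.18 instead of 2.62. Icam1, an adhesion receptor, had 55.4 CPM in members against 4.85 CPM in other cells with supplements, 22.7 against 6.35 without supplements and 143 against 15.3 at 4 dpi, and the monocyte chemokine Ccl2 had 360.3 CPM in members against 70.8 CPM in other cells with supplements, 250.2 against 57.7 without supplements and 1867 against 660.3 at 4 dpi. Cxcl10, an interferon-induced chemokine, had 193 CPM in members against 15.4 CPM in other cells with supplements, 375 against 21.6 without supplements and 1771 against 722 at 4 dpi, but without supplements 1 cell held 72.1% of its member UMIs and the log2 ratio without that cell was 2.31. Ccl20, which attracts lymphocytes, had 43.6 CPM in members against 5.94 CPM in other cells with supplements, 4.69 against 5.32 without supplements and 61.9 against 2.21 at 4 dpi, the values without supplements from 6 member UMIs and below the floor. The inflammatory cytokine Tnf gave 1 UMI over all members of each library, so its level could not be compared at this depth.

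Immediate early genes were higher in members as well. At least 2-fold higher were 14 of 19 with supplements, 13 of 21 without supplements and 20 of 21 at 4 dpi, with none 2-fold lower, and medians of 1.88, 1.46 and 2.07. Junb, a subunit of AP-1, had 445 CPM in members against 57.4 CPM in other cells with supplements, 369.8 against 74.7 without supplements and 608 against 75.6 at 4 dpi. Ier2, an early nuclear protein, had 464 CPM in members against 64.3 CPM in other cells with supplements, 432 against 80.3 without supplements and 455 against 55.3 at 4 dpi. Egr1, a zinc-finger factor, had log2 ratios of 2.13, 2.34 and 1.81, Klf4 of 2.59, 1.85 and 2.11, Klf6 of 1.62, 1.79 and 2.85 and Myc of 1.88, 1.28 and 1.80. Zfp36, which binds AU-rich messages for decay, had log2 ratios of 2.09, 1.66 and 2.94. Fos and Jun, the best known members of the class, were less far from other cells, at 1.39, 0.68 and 2.05 for Fos and 0.60, 0.47 and 1.27 for Jun.

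**Figure D3:**
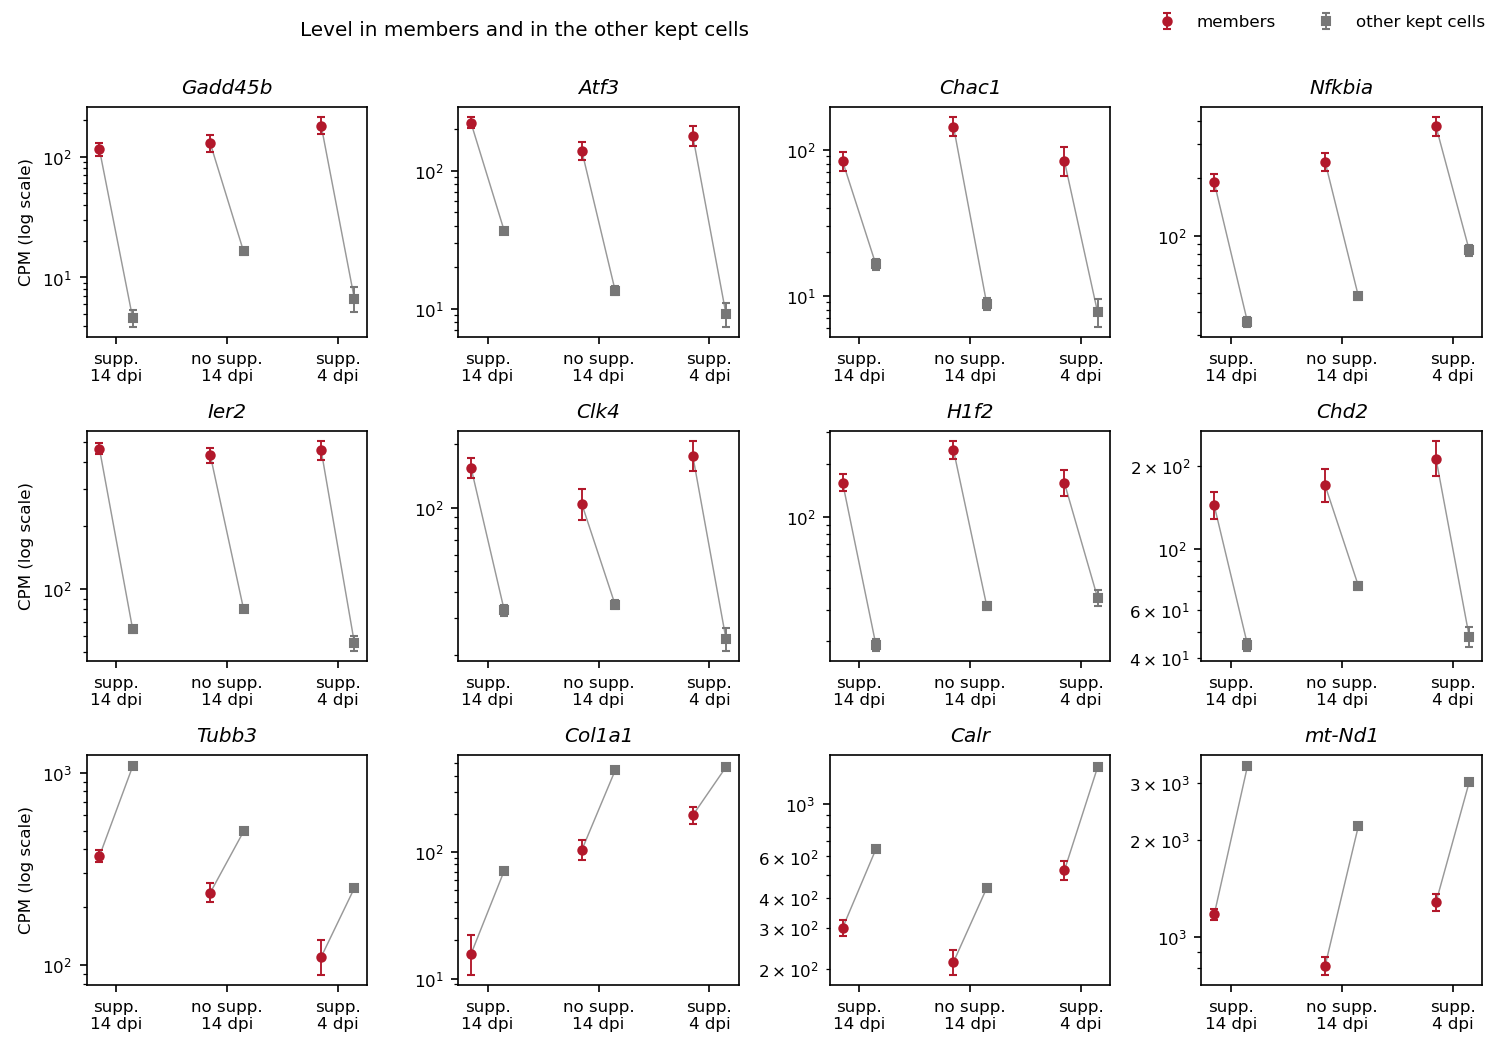
CPM (log scale) of 12 genes in members (red circles) and in the other kept cells (grey squares) of each library, with exact Poisson 95% intervals that cover counting error only. Atf3 lies at 222, 138 and 179 CPM in members against 36.6, 13.5 and 9.09 CPM in other cells from left to right, while Calr and mt-Nd1 lie lower in members in all 3.

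The neighbour of Chaserr was higher as well. Chd2 had 144 CPM in members against 44.9 CPM in other cells with supplements, 170.5 against 73.4 without supplements and 213 against 47.9 at 4 dpi, log2 ratios of 1.68 (1.5 to 1.86) with supplements, 1.21 (1.01 to 1.41) without supplements and 2.15 (1.90 to 2.40) at 4 dpi. It was the only gene at least 2-fold higher among 9 chromatin remodellers, and the median of that list was -0.02, -0.06 and 0.24. Chd4, a subunit of the NuRD complex, had log2 ratios of -0.32, -0.25 and -0.23 and Chd8 of -0.12, -0.21 and -0.15. The level of Chaserr in members was fixed by the choice of cells, and whether the single cells that carried it also carried Chd2 was not tested. Whether reads from 1 transcript were assigned to the other was not tested.

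Other small nucleolar RNA hosts were listed together with further short-lived noncoding RNAs such as Norad, and the list held genes far above the other cells and genes at or below them. Of the whole list, at least 2-fold higher were 8 of 17 with supplements, 7 of 18 without supplements and 8 of 13 at 4 dpi. Snhg1 had 1831 CPM in members against 278 CPM in other cells with supplements, 1378 against 328 without supplements and 922 against 166 at 4 dpi, and Zfas1 had 633 CPM in members against 102 CPM in other cells with supplements, 586 against 178 without supplements and 659.9 against 122 at 4 dpi. Snhg12 had log2 ratios of 2.60, 1.37 and 2.06, Epb41l4aos of 2.69, 1.78 and 2.78, Snhg5 of 2.18, 1.41 and 1.47 and Gas5 of 1.30, 0.94 and 1.15. Snhg3 (-0.43, -0.27 and -0.42), Snhg18 (-1.16, -0.99 and -0.80) and Norad, a cytoplasmic RNA that binds Pumilio proteins (-1.06, -1.63 and -0.56), lay below zero. Snhg8 was not 2-fold apart in any library (0.62, 0.34 and 0.36).

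Decay and splicing genes showed the same direction. Among decay factors and transcripts known as decay targets, those at least 2-fold higher were 9 of 16 with supplements, 8 of 15 without supplements and 7 of 16 at 4 dpi, a list that shares Gadd45b, Atf4 and Gas5 with lists above. Upf2, a core decay factor, had 55.9 CPM in members against 19.6 CPM in other cells with supplements, 85.2 against 28.4 without supplements and 88.2 against 24.2 at 4 dpi, while Upf1, the helicase, had log2 ratios of 0.63, 0.52 and 0.19. Among speckle proteins and SR kinases, those higher were 12 of 18 with supplements, 9 of 19 without supplements and 8 of 18 at 4 dpi. Clk4, a kinase of SR proteins, had 155 CPM in members against 32.6 CPM in other cells with supplements, 104 against 34.6 without supplements and 176 against 23.7 at 4 dpi. Luc7l, a U1-associated splicing protein, had log2 ratios of 1.75, 1.49 and 1.82, Tra2b, a splicing regulator, of 1.78, 1.81 and 1.29, and Clk1 of 1.37, 1.05 and 1.29. The speckle scaffolds Son (0.41, 0.42 and 0.44) and Srrm2 (0.56, 0.08 and 0.47) were not 2-fold higher in any library.

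Nuclear-retained noncoding RNAs were not raised with them. The imprinted RNA Airn had 33.6 CPM in members against 109 CPM in other cells with supplements, 42.2 against 101 without supplements and 21.8 against 73.5 at 4 dpi, and Rian, of the Dlk1-Meg3 locus, had log2 ratios of -1.09, -0.88 and -1.69. Meg3 itself had log2 ratios of -0.99, -0.74 and -1.20. Malat1, the most abundant nuclear RNA of many cells, stayed near other cells (0.04, -0.33 and 0.15). Neat1, the paraspeckle scaffold, was at least 2-fold higher in the library with supplements and in neither other one (1.44, -0.47 and 0.27), a difference between libraries that was not tested.

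Targets of p53 were higher in part. In cultures that had all received p53DD, p53 targets at least 2-fold higher were 8 of 16 with supplements, 4 of 13 without supplements and 9 of 18 at 4 dpi. Bbc3, which encodes the death protein PUMA, had 122 CPM in members against 27.98 CPM in other cells with supplements, 119.6 against 28.4 without supplements and 111 against 17.5 at 4 dpi. Plk2, a polo-like kinase, had log2 ratios of 2.93, 1.92 and 1.78, and Mdm2, which marks p53 for degradation, of 2.19, 0.58 and 1.54. Cdkn1a, the cell cycle inhibitor p21, had 461 CPM in members against 144 CPM in other cells with supplements, 285 against 176 without supplements and 1080 against 427 at 4 dpi. Among apoptosis regulators, those higher were 4 of 13 with supplements, 1 of 11 without supplements and 5 of 12 at 4 dpi, against 15.1, 11.1 and 21.8% of all genes, so the count without supplements was no more than that of all genes. Bid had log2 ratios of 3.08, 1.48 and 2.91, the second of these from levels below the floor. Bcl2l1, which protects from apoptosis, was not 2-fold lower in any library (-0.86, -0.29 and -0.27). The median log2 ratio of the apoptosis list was 0.83, 0.25 and 0.60.

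Replication histones included some of the larger ratios. H1f2, a linker histone, had 156 CPM in members against 19.1 CPM in other cells with supplements, 238 against 31.5 without supplements and 156 against 34.95 at 4 dpi, and H4c4 log2 ratios of 1.86, 2.49 and 1.26. H1f5, another linker histone, lay in the other direction with 11.8 CPM in members against 25.6 CPM in other cells with supplements, 10.9 against 27.1 without supplements and 58.4 against 226 at 4 dpi, although within cells with more neuron than fibroblast marker UMIs its log2 ratio without supplements was 0.73. Dividing markers did not follow H1f2 in every library: those 2-fold higher were 5 of 17 with supplements, 1 of 14 without supplements and 0 of 20 at 4 dpi, and those 2-fold lower 0 of 17 with supplements, 4 of 14 without supplements and 5 of 20 at 4 dpi. Cells with at least 0.5% of UMIs from dividing markers were 5.37% of members against 2.59% of other cells with supplements, 2 against 4.12% without supplements and 7.38 against 9.90% at 4 dpi. Poly(A) capture reads most replication histone messages poorly, and close copies make single histone genes uncertain.

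The lists were also set against the median gene. The list medians minus that of all genes were 1.74, 0.93 and 1.75 for NF-kB subunits and inhibitors, 1.66, 1.29 and 1.68 for immediate early genes, 0.40, 0.74 and 1.08 for small nucleolar RNA hosts with other short-lived noncoding RNAs and 1.04, 0.81 and 0.45 for speckle and SR kinase genes. They were -1.07, -0.92 and -1.26 for the unfolded protein response, -1.23, -1.05 and -1.24 for mitochondrially encoded genes and -1.08, -1.95 and -1.36 for fibroblast markers. Some lists near zero changed sign with supplements on this scale: heat shock genes lay at -0.10, 0.07 and -0.64 and ribosomal protein genes at -0.11, -0.31 and -0.68.

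**Figure D4:**
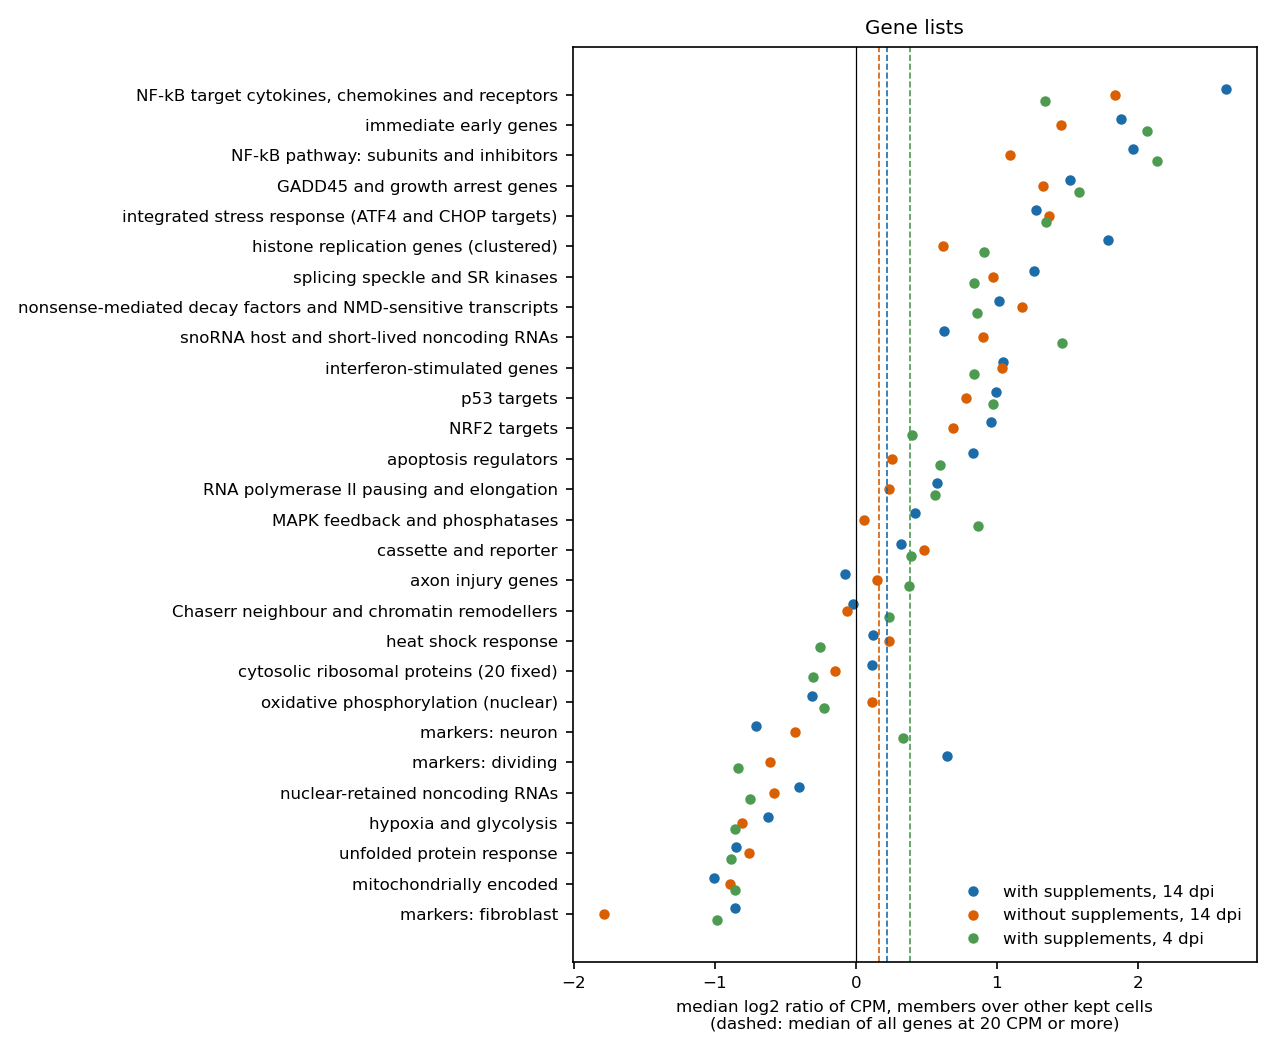
Median log2 ratio of CPM, members over other kept cells, for each gene list with at least 5 genes at 20 CPM, coloured by library, with dashed lines at the median of all genes. Immediate early, NF-kB and integrated stress response lists lie right of the dashed lines (0.22, 0.16 and 0.38), and the mitochondrially encoded, unfolded protein response and fibroblast marker lists lie left of 0.

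Mitochondrially encoded transcripts, an abundant class, were lower in members. Their summed level was 33654 CPM in members against 62304 CPM in other cells with supplements, 31519.7 against 49106 without supplements and 22498 against 38106 at 4 dpi. Of the 13 genes, those at least 2-fold lower were 7 of 13 with supplements, 6 of 13 without supplements and 5 of 12 at 4 dpi, and none was 2-fold higher. mt-Nd1, a subunit of complex I, had 1175 CPM in members against 3379 CPM in other cells with supplements, 815 against 2206 without supplements and 1282 against 3021 at 4 dpi, and mt-Nd3 log2 ratios of -1.62, -1.21 and -1.17. mt-Co1, of complex IV, was closest to other cells, at -0.29, -0.39 and -0.45. The percent of mitochondrial UMIs was part of the filter on kept cells, though not of the rule for members. Nuclear genes of oxidative phosphorylation had medians of -0.31, 0.11 and -0.22, near zero, with Uqcrh of complex III the furthest below at -1.23, -1.41 and -1.15. Cytosolic ribosomal protein genes had medians of 0.12, -0.15 and -0.30, and none of the 20 was 2-fold higher. At least 2-fold lower were 0 of 20 with supplements, 1 of 20 without supplements and 3 of 20 at 4 dpi, against 6.49, 7.83 and 4.34% of all genes. Rpl10 lay at -0.70, -1.06 and -1.28, Rpl41 at -0.66, -0.81 and -1.27 and Rps4x at -0.64, -0.78 and -1.10.

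Glycolytic and hypoxia genes had median log2 ratios of -0.62, -0.81 and -0.86. Those at least 2-fold lower were 1 of 13 with supplements, 8 of 22 without supplements and 4 of 13 at 4 dpi, against 6.49, 7.83 and 4.34% of all genes, so the count with supplements was near that of all genes. Gapdh, the glycolytic enzyme often used as a constant reference, had 651 CPM in members against 1071 CPM in other cells with supplements, 1363 against 2896 without supplements and 787 against 1771 at 4 dpi. Pgk1 had log2 ratios of -0.71, -0.99 and -1.01 and Tpi1 of -0.67, -0.88 and -1.04, both enzymes of glycolysis. Vegfa, a growth factor that is also a stress target, went the other way (1.04, 0.51 and 1.30). Prdx1, a peroxidase listed with the NRF2 targets, had log2 ratios of -1.13, -1.31 and -1.68.

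Fibroblast genes were lower in members of all 3 libraries. Markers at least 2-fold lower were 8 of 19 with supplements, 17 of 20 without supplements and 9 of 20 at 4 dpi, with medians of -0.85, -1.79 and -0.98. Col1a1, a chain of type I collagen, had 15.6 CPM in members against 71.3 CPM in other cells with supplements, 104 against 441 without supplements and 195 against 469.6 at 4 dpi. Fbn1, the microfibril protein fibrillin, had log2 ratios of -0.75, -3.31 and -1.63, and Lum, a collagen-binding proteoglycan, of -1.07, -2.86 and -1.71. Twist1, a mesenchymal transcription factor, was 2-fold higher at 14 dpi instead, with 248 CPM in members against 103 CPM in other cells with supplements, 365 against 115 without supplements and 386 against 269 at 4 dpi. Within cells with more neuron than fibroblast marker UMIs, a range set by these same markers, Lum without supplements (0.46) and Col1a1 at 4 dpi (0.64) had ratios above zero, and in the remaining cells Twist1 with supplements was at -0.049. The transcription factor Prrx1 (0.27, 0.21 and -0.04) and the receptor Pdgfra (-0.39, -0.30 and -0.11) were close to other cells. Lower in all 3 libraries beyond the list were S100a4, a calcium-binding protein (-2.40, -4.46 and -2.64), the collagen Col8a1 (-2.93, -3.86 and -1.85), Emilin1 of elastic fibres (-3.87, -3.22 and -1.63, the first of these from 3 member UMIs with a counting interval of -6.15 to -2.31), the microfibril protein Mfap2 (-1.62, -1.80 and -2.31) and the imprinted noncoding RNA H19 (-3.32, -1.98 and -1.92). Nsdhl, of cholesterol synthesis (-1.71, -1.88 and -1.72), St8sia2, which adds polysialic acid (-1.87, -2.35 and -2.68), and the membrane protein Itm2a (-1.77, -2.46 and -1.78) complete the 8.

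Part of the neuronal genes were lower at 14 dpi, and the reporter was higher. Tubb3, a neuronal tubulin, had 368 CPM in members against 1080.0 CPM in other cells with supplements, 238 against 495 without supplements and 110.0 against 252 at 4 dpi. Stmn2, a tubulin-binding protein of growing axons, had 188 CPM in members against 882 CPM in other cells with supplements and 58.6 against 264 CPM without supplements. Of the neuron markers, those at least 2-fold lower were 7 of 17 with supplements, 5 of 18 without supplements and 1 of 11 at 4 dpi, and 3 were higher at 4 dpi, Elavl4, Ina and Syt1. Map2, a dendritic protein, was not 2-fold apart in any library (-0.21, 0.34 and 0.04). The reporter transcript v.EGFP had 3776 CPM in members against 2364 CPM in other cells with supplements, 4927 against 1825 without supplements and 512 against 156 at 4 dpi, log2 ratios of 0.68 (0.64 to 0.71) with supplements, 1.43 (1.40 to 1.47) without supplements and 1.71 (1.56 to 1.86) at 4 dpi. Mnx1, whose regulatory sequence drives it, had 24.1 CPM in members against 11.2 CPM in other cells with supplements and 59.4 against 20.3 CPM without supplements, and 1 UMI in members at 4 dpi. With supplements, the log2 ratio of Mnx1 was -0.21 within cells with no more neuron than fibroblast marker UMIs. At 14 dpi the sort itself took cells by GFP.

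The members were not 1 cell type by these markers. Cells with more neuron than fibroblast marker UMIs were 80.5% of members against 79.9% of other cells with supplements, 78% against 58.9% without supplements and 21.0% against 10.6% at 4 dpi. Within the cells with more neuron marker UMIs, the integrated stress response median was 1.18 with supplements, 1.59 without them and 1.90 at 4 dpi, and within the remaining cells it was 1.41, 1.23 and 1.34. The NF-kB subunit median was 2.11, 0.93 and 2.05 in cells with more neuron marker UMIs and 1.70, 1.62 and 2.08 in the remaining cells. The ranges were set by the UMIs of the markers themselves, so marker ratios within them depend in part on the split. Fibroblast marker medians were -0.43, -0.84 and -0.77 in cells with more neuron marker UMIs and -0.88, -1.42 and -0.93 in the remaining cells. Neuron marker medians did not keep 1 sign: they were -0.76, -0.81 and -0.26 in cells with more neuron marker UMIs and -0.31, 1.14 and -0.06 in the remaining cells. Tubb3 without supplements was lower over all cells (-1.06) but had a log2 ratio of 0.74 within the remaining cells. These ranges were chosen after the data were seen.

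Most markers of other cell types lay below 20 CPM. No marker of macrophages, lymphocytes, glia, skeletal muscle or red cells reached 20 CPM in members or other cells of any library. Of endothelial markers Egfl7 reached it at 14 dpi, and of keratinocyte markers Krt10 in each library and Krtdap without supplements. The 12 macrophage markers summed to 6.16 CPM in members against 6.26 CPM in other cells with supplements, 2.35 against 12.3 without supplements and 5.73 against 27.4 at 4 dpi. Skeletal muscle markers summed to 8.52 CPM in members against 13.8 CPM in other cells with supplements, 4.69 against 7.54 without supplements and 14.9 against 3.27 at 4 dpi, where members held 13 UMIs, and glial markers to 11.4 CPM in members against 10.99 CPM in other cells with supplements, 6.26 against 7.96 without supplements and 13.7 against 5.65 at 4 dpi, where members held 12 UMIs. At 4 dpi both sums were thus higher in members, and the macrophage sum was lower. Keratinocyte markers summed to 99.4 CPM in members against 78.3 CPM in other cells with supplements, 81.3 against 127 without supplements and 61.9 against 39.4 at 4 dpi. Contractile markers, which fibroblasts also express in part, summed to 50.2 CPM in members against 62.9 CPM in other cells with supplements, 83.7 against 132 without supplements and 165 against 336 at 4 dpi. The part of these cell types in the results was not tested. Doublet scores of members had medians of 0.0520 against 0.0623 in other cells with supplements, 0.0492 against 0.0516 without supplements and 0.0768 against 0.0732 at 4 dpi.

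Single members differed in which lists had a high share of their UMIs. How much of this comes from counting error in single cells was not tested. The 95th percentile of other cells in a list's share of UMIs was taken as a line. Members above it for the integrated stress response were 40.3% with supplements, 63% without supplements and 41.3% at 4 dpi. Members above it for NF-kB subunits and inhibitors with their targets were 28.9, 18 and 16.2%, and for immediate early genes 53.02, 38 and 57.6%. Above both the stress and the NF-kB lines were 12.8% of members against 0.185% of other cells with supplements, 11 against 0.277% without supplements and 7.75 against 0.592% at 4 dpi. Neither line was passed by 43.6, 30 and 50.2% of members, against 90.1, 90.3 and 90.6% of other cells. Relb was itself kept out of the NF-kB list, and Atf3 is within the stress list.

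Several sums differed along the rule's share among the members. With supplements, summed NF-kB subunit and inhibitor levels were 574 CPM in the 63 members at 0.1 to 0.2%, 810 CPM in the 57 at 0.2 to 0.4% and 1155 CPM in the 29 at 0.4% or more. The same sums were 628, 770 and 1094 CPM without supplements, where the top range held 6 cells, and 955, 1569 and 1783 CPM at 4 dpi. Integrated stress response sums were 4983, 6289 and 6354 CPM with supplements, 5134, 6855 and 5754 CPM without supplements and 3765, 5079 and 6078 CPM at 4 dpi. Mitochondrially encoded sums were 37721, 30203 and 32110 CPM with supplements, where the top range was not the lowest, 34812, 27792 and 19294 CPM without supplements and 28453, 21857 and 15528 CPM at 4 dpi. In other cells they were 62304, 49106 and 38106 CPM. Fibroblast marker sums ran down in each library, at 4 dpi to 6734, 4914 and 2969 CPM, against 9434 CPM in other cells. Even the lowest range of members lay on the members' side of the other cells for these 4 lists in each library.

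**Figure D5:**
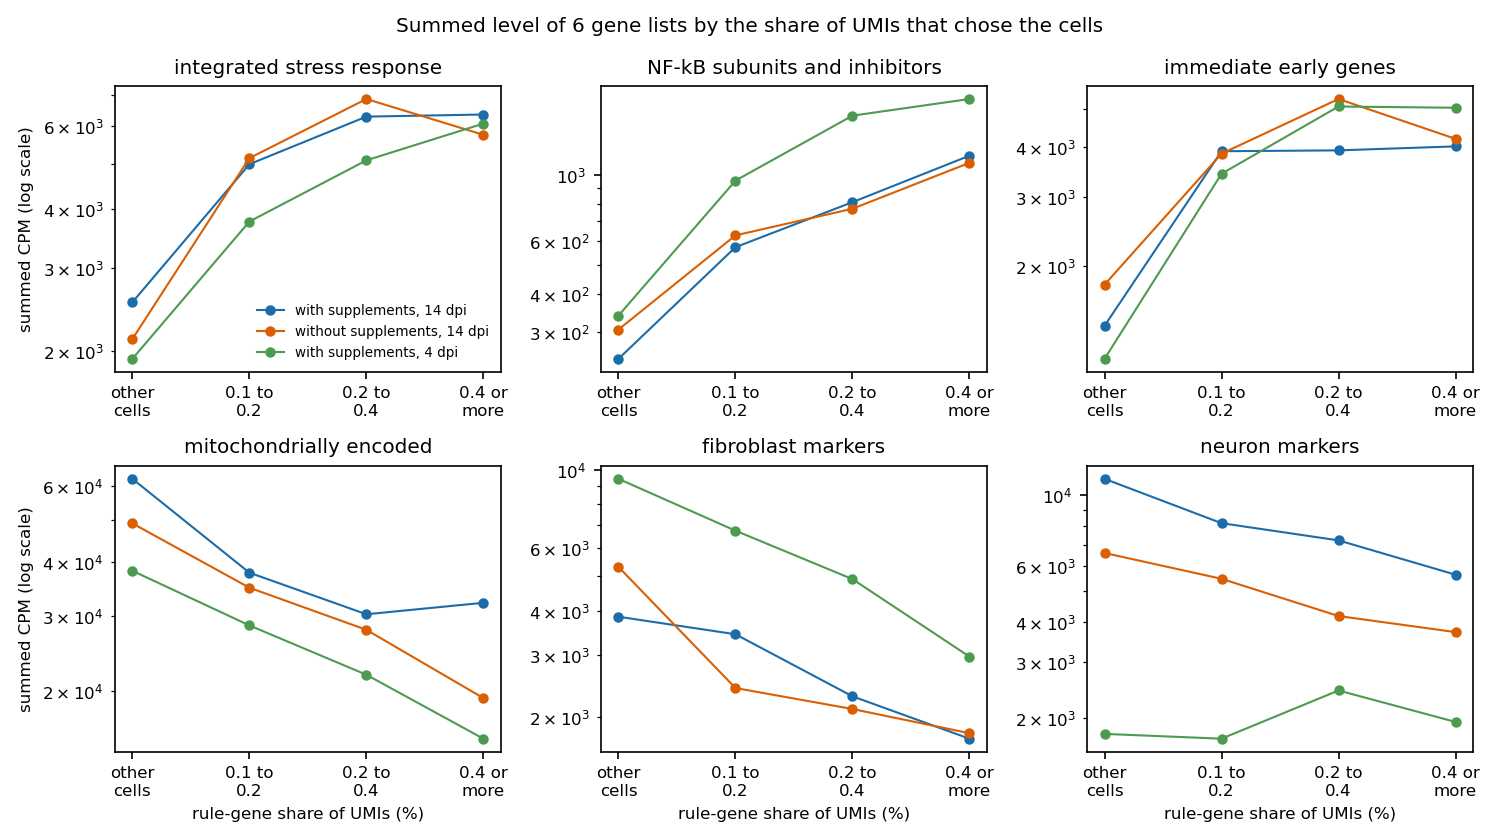
Summed CPM (log scale) of 6 gene lists in other kept cells and in members at 0.1 to 0.2, 0.2 to 0.4 and 0.4 or more percent of UMIs from the 4 genes of the rule, 1 line per library. NF-kB sums climb along the ranges to 1155 CPM with supplements, 1094 CPM without them and 1783 CPM at 4 dpi, while fibroblast marker sums run down.

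Beyond the genes common to all libraries, each had its own highest and lowest ratios. With supplements the highest not yet named in that library were Ltb, a TNF-family cytokine (35.98 CPM in members against 0.663 CPM in other cells, with 47.4% of it from 1 cell and 19.4 CPM without it), Madcam1, an adhesion molecule (23.2 against 0.519), Nfkbie, an NF-kB inhibitor (31.2 against 1.15), and the olfactory receptor gene Olfr889 (48.3 against 1.70, with 44.1% from 1 cell). Without supplements they included Erdr1 (27.4 against 1.84 CPM), Rnf138rt1 (37.5 against 1.57) and the potassium channel Kcnj2 (20.3 against 1.08). At 4 dpi they included Ifnb1, interferon beta (27.5 CPM in members against 0.177 CPM in other cells, with 75% of its 24 UMIs from 1 cell and 6.90 CPM without it), Traf1, a TNF receptor adaptor (34.4 against 1.41), Neurl3 (20.6 against 0.353, and 16.1 CPM without its top cell) and the neuropeptide precursor Vgf (124 against 3.80). All these highest genes passed the floor of 20 CPM through members alone, so they tend to differ by construction. Ltb, Kcnj2, Ifnb1 and Neurl3 fell below it without 1 cell. The lowest were the lipid carrier Fabp4 (1.42 CPM from 3 UMIs in members against 36.9 CPM in other cells, log2 ratio -4.70 with a counting interval of -6.98 to -3.15), Gng3, Kcnj5, Lhfpl1 and Fkbp1b with supplements. Without supplements they were Ndufa4l2, a hypoxia-induced mitochondrial protein (3.91 against 46.8), Cavin2, Fgfbp1, Spon2 and Angptl7. At 4 dpi they were the chemokine Ccl11 (0 UMIs in members against 22.2 CPM in other cells, a log2 ratio of at most -2.69 with 3 UMIs set for 0), Mmp3, Gm8773, Tagln and Snn.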

How the data were processed

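Single cells of 3 libraries, 1 per group, were profiled with 10x Genomics NextGEM 3′ v3.1 reagents, per the labels' protocols. The deposited matrices hold UMI counts per gene and cell barcode with no normalization. Per the file headers, Cell Ranger 6.1.1 wrote them, and the submitters' processing notes name GRCm39 as the build. The calling of barcodes as cells and the treatment of intron reads are not given in the sources used here. Counted intron reads would add unspliced RNA to genes such as Chaserr.

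From these counts, 31783 features were summed to 31744 symbols. A barcode was kept at 500 or more genes and no more than 20% mitochondrial UMIs. This removed 153 of 2467 with supplements, 177 of 3893 without supplements and 110 of 4602 at 4 dpi. Scrublet (scanpy 1.11.5) called 3, 2 and 2 doublets (0.130, 0.0538 and 0.0445% of cells). A working caller would mark more, so doublets were kept. As an alternative, cells in the top 5% of scores were dropped, which took 102, 186 and 171 cells with 2, 7 and 13 members.

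UMIs were summed over members and over the other kept cells of the same library and given as CPM, per 1000000 UMIs. Genes at 20 CPM or more on either side were compared, and a ratio of at least 2-fold was called higher or lower. Shares have Clopper-Pearson 95% intervals, levels exact Poisson ones, and ratios exact binomial ones on the split of UMIs. All cover counting error only. A count of 0 was set to 3 UMIs, which makes its ratio a bound. With 1 library per group, cells are not replicates, so no test was made. The procedure was run on simulated counts drawn from the libraries' summed levels, with known folds set for some genes. Those counts had no variation between cells and no choice of members by their transcripts, so they cannot show how the intervals fare with either.

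The members, the markers and the gene lists were chosen with earlier results of these data known. Named genes, other than the rule's 4, mitochondrial and ribosomal protein genes, were the 16 with the highest smallest ratio over the 3 libraries, the 8 with the lowest largest ratio, the 5 highest and 5 lowest further genes of each library, Cxcl2 and Atf3. To these came, for each list, the 3 genes with the largest mean ratio and any that went the other way. Further list genes were named for their role after their values were seen. Promoters came from RefSeq in build GRCm38.p6, another build than that of the counts, and were matched by symbol. Python 3.11.15, numpy 2.4.6, scipy 1.17.1, pandas 2.3.3 and matplotlib 3.10.9 were used.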

Additional observations from a re-analysis of the deposited data

Results flagged for a closer look

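Slc5a7, the choline transporter of cholinergic neurons, was at least 2-fold higher in members of 1 library of 14 dpi and at least 2-fold lower in members of the other. With supplements it had 47.8 CPM in members against 17.9 CPM in other cells, a log2 ratio of 1.42. Without supplements it had 7.04 CPM in members, from 9 UMIs in 7 cells, against 28.7 CPM in other cells, a log2 ratio of -2.03. At 4 dpi it had 44.7 CPM in members against 38.7 CPM in other cells, a log2 ratio of 0.21. The difference between the libraries was not tested, since each group holds 1 library. Within cells with more neuron than fibroblast marker UMIs, the log2 ratio without supplements was 0.42. It rests on no more than those 9 member UMIs, so no direction is read from it.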

How the results depend on the processing

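The share of members moved with the rule. At a line of 0.05% of UMIs it was 11.1% with supplements, 6.14% without them and 7.28% at 4 dpi, and at 0.2% it was 3.72, 1.08 and 3.94%. Thinned to 3000 UMIs it was 8.55, 4.27 and 10.8%, the last from the 1433 cells of 4 dpi deep enough. Thinned to 1500 UMIs it was 4.80, 1.58 and 5.21%. With at least 5 UMIs it was 4.52% at 4 dpi, where cells are shallow. All deposited barcodes, at most 10% mitochondrial UMIs and leaving out the highest doublet scores moved no share or gene count beyond its limit, nor did weighting other cells by depth, means of per-cell shares or leaving out dividing cells.

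Counts of genes called moved by construction with the floor. At 50 CPM there were 569 higher and 257 lower genes with supplements, 481 and 289 without supplements and 793 and 187 at 4 dpi. At 5 CPM there were 1787 and 844, 1224 and 1150, and 2487 and 594. Centred on the median gene there were 701 and 738 with supplements and 779 and 746 at 4 dpi. With members at 0.2% or more there were 1281 higher and 890 lower genes without supplements and 576 lower genes at 4 dpi, from fewer member cells. Within cells with more neuron than fibroblast marker UMIs there were 2401 higher and 792 lower genes at 4 dpi, and within the remaining cells 1244 higher genes without supplements, again from fewer cells.

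Of 475 list medians under the alternatives, 342 stayed within a limit. Another 132 moved beyond it without a change of sign from 2-fold or more. The limit was the median reach, to either side, of the counting intervals of the list's single genes. No counting error of a list median itself was computed. In all 30 changed sign, 1 of them from a median at least 2-fold from zero. Of 4479 values of named genes, 3687 stayed within their counting interval and 778 moved beyond it without a change of sign from a called ratio. In all 80 of the 4479 changed sign, of which 14 had been called and 66 were under 2-fold or below 20 CPM. The cause was not tested. At 0.2% or more Rsad2 with supplements was -0.57. Within cells with no more neuron than fibroblast marker UMIs, Gng3 (1.997), Kcnj5 (0.16), Mnx1 (-0.21), Twist1 (-0.049) and mt-Nd6 (0.16) changed sign with supplements, Tubb3 (0.74) without supplements and Hspb1 (-0.042) at 4 dpi. Within cells with more neuron marker UMIs, Angptl7 (0.15), H1f5 (0.73), Lum (0.46), Mmp3 (0.73), Slc5a7 (0.42) and the contractile marker median (0.13) did so without supplements, and Col1a1 (0.64) at 4 dpi. These ranges were set by the neuron and fibroblast markers themselves. They and the omission of top cells were chosen after the data were seen.

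No paired analysis was possible because each group holds 1 library. The 4 dpi members had a median of 8 rule UMIs, against 28 with supplements and 21.5 without supplements at 14 dpi, and 41 of the 271 had the minimum of 3. Genes below 20 CPM on both sides entered no count, and the few whose values are printed are marked so.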

Other observations

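Interferon-stimulated genes were also higher in members, with log2 ratios again in the order of the library with supplements, the one without them and the 4 dpi one. Of the 27 listed, those at least 2-fold higher were 11 of 18 with supplements, 9 of 18 without supplements and 11 of 24 at 4 dpi, with median log2 ratios of 1.04, 1.04 and 0.84. Irf1, an early interferon regulatory factor and NF-kB target, had 26.04 CPM in members against 5.34 CPM in other cells with supplements, 43.00 against 7.85 without supplements and 228 against 20.8 at 4 dpi. Without supplements 1 cell held 34.5% of Irf1's member UMIs, and without it the log2 ratio was 1.85 instead of 2.45. Isg15, a ubiquitin-like modifier, had log2 ratios of 1.01, 2.03 and 0.96 and Ifih1, a sensor of double-stranded RNA, of 1.40, 2.12 and 1.00. Rsad2, the antiviral protein viperin, had log2 ratios of 1.32, 2.04 and 1.45, but without the cell with the most UMIs they were 0.47 with supplements and 0.74 without supplements. Members above the 95th percentile of other cells for this list were 18.1% with supplements, 17% without supplements and 20.7% at 4 dpi.

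Motor neuron markers, Mnx1 among them, did not share 1 direction. With supplements 6 of the 10 listed reached 20 CPM, of which 2 were at least 2-fold higher, Mnx1 and Slc5a7, and 2 lower. Without supplements 1 of 6 was higher, Mnx1, and 4 were lower. At 4 dpi 2 reached 20 CPM, with 0 higher and 0 lower. Ret, the GDNF co-receptor, had 16.1 CPM in members against 57.3 CPM in other cells with supplements and 9.38 against 56.8 CPM without supplements. Prph, the intermediate filament peripherin, had 20.8 against 47.2 CPM and 15.6 against 34.95 CPM in members and other cells of the same libraries. Of the cassette genes, Lhx3 (-0.47, 0.34 and 0.03), Isl1 (-0.33, 0.20 and 0.12) and Neurog2 (-0.71, 0.44 and 0.19) were not 2-fold apart in any library. Trp53 had log2 ratios of 1.15, 1.16 and 0.71 and Hras of 0.32, 0.49 and 0.60.

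Axon injury genes had medians of -0.08, 0.15 and 0.38. Klf6 was higher in each library (1.62, 1.79 and 2.85), and the neuropeptide Gal was lower with supplements (-2.03, 0.04 and -0.96), with -0.40 without supplements once the cell with the most UMIs was left out. Of 12 NRF2 targets, Hmox1, which breaks down haem, was higher in 2 libraries (2.75, 0.93 and 1.51), and Txnrd1, thioredoxin reductase, was near other cells (-0.03, -0.07 and -0.37). With supplements 1 cell held 26.8% of Hmox1's member UMIs, and the log2 ratio without it was 2.31. Dusp4, a MAPK phosphatase, had log2 ratios of 1.27, 1.79 and 0.87 and Errfi1, an inhibitor of EGF receptors, of 1.39, 1.13 and 1.55, while Spry4 was not 2-fold apart (0.41, -0.70 and 0.17). Among elongation factors Aff1, a scaffold of the super elongation complex, had log2 ratios of 1.82, 0.83 and 1.85, and Polr2a, the large subunit of RNA polymerase II, of 0.28, -0.39 and -0.25.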
